A study of Mus musculus with 26 samples.

Results

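The solute carriers are a large superfamily of membrane transport proteins, and 88 of their genes could be followed here in endothelial cells exposed to interferon gamma (IFNγ). The members are all genes whose single annotation symbol begins with Slc, the Slco genes included, except Slc16a3. They were 88 of the 5120 genes that had at least 1 probe set of their own, and they were read by 1122 probe sets, between 3 and 26 per gene with a median of 13. The value of a gene is the mean of its probe sets, in log2 units of array signal.

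Solute carriers move small molecules across membranes without using ATP directly. They act as uniporters that let a substrate run down its gradient, as cotransporters that pull it along with sodium or protons, or as exchangers that trade one substrate for another. In endothelium they supply amino acids, glucose, vitamins and metal ions to the cell itself and, in tight capillary beds, to the tissue behind it. Members of family 25 carry metabolites across the inner mitochondrial membrane, and some of families 29 and 35 work in lysosomes or in the Golgi apparatus.

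CD31+ and CD146+ cells were sorted from female mice, between 5000 and 15000 cells per sample, and about 500 pg of RNA was amplified for whole-transcript arrays. MCA313 tumours grew in PIG x Pdgfb-Cre x IFNγ-del transgenic mice, in which only endothelial cells could respond to IFNγ through its receptor. Their tumour cells released IFNγ, and arrays were made at 0 h (n = 3), 24 h (n = 2) and 48 h (n = 2). J558L is a plasmacytoma line whose IFNγ-GFP form was grown in Rag-/- mice, where the receptor was present in every cell type. Tumour endothelium was taken at 0 h (n = 2) and 24 h (n = 3), and kidney endothelium of J558L-bearing mice at 0 h (n = 3) and 24 h (n = 3). 16.113 tumours in Rag-/- mice were collected at 120 h from mice given T cells either competent (n = 3) or deficient (n = 5) for IFNγ. Mice were 4 to 6 months old, and those with 16.113 tumours 3 to 4 months. Replicates carry numbers, but nothing states that they came from separate animals, so p-values measure the spread between these samples only.

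The 26 arrays had been normalized as 4 separate sets (the MCA313 tumours, the 16.113 tumours, and the tumours and kidneys of J558L mice), so levels are compared only within a set. The array medians ran from 5.62 to 6.46. Of 14 endothelial markers, Pecam1 (CD31) and Icam2 could be read, and both lay above the array median in all 9 groups. Of 9 genes listed as a check of the IFNγ response 6 could be read, and their mean went from between 7.15 and 8.94 at 0 h to between 9.91 and 9.93 at 24 h in MCA313 tumours and from between 8.98 and 9.08 to between 10.42 and 10.54 in J558L tumours. In kidney it went from between 8.72 and 9.05 to between 10.54 and 10.58, and in 16.113 tumours it lay between 7.50 and 7.75 with deficient and between 9.50 and 9.75 with competent T cells. The members lie on chromosomes 1 (21 genes), 10 (22), 11 (31), 12 (11) and 13 (3), and solute carrier genes elsewhere were not analysed here. Of the 5112 genes matched to RefSeq, 5092 (99.6%) lay on these 5 chromosomes, so a share of all genes below describes this part of the genome and is not genome-wide.

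The members spanned most transport tasks of a cell. Tasks were assigned by Slc family number, so a single gene may carry a substrate other than that of its list. There were 11 genes for amino acids and related amines, 10 for carboxylates, 7 for sugars, 6 for vitamins and nucleosides, 11 for metals, 11 for other ions and pH, 9 mitochondrial carriers, 6 genes of family 35, 7 for organic ions and drugs, 5 Slco genes, 4 of family 17, and Slc9a3r1, a scaffold protein that regulates a sodium-proton exchanger and is no transporter itself. The values come with no detection call, so the median of all probe sets on an array served as a reference level. In each group between 26 and 30 of the 88 members lay above it, 29.5% to 34.1%, against 43% to 44.4% of all genes. A total of 19 members lay above it in all 9 groups, 52 in none, and 17 in some groups.

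Mitochondrial carriers, family 35 and metal transporters made up most of the 19 members above the reference level everywhere. These were 5 of 9 mitochondrial carriers (Slc25a3, the phosphate carrier, Slc25a11, the oxoglutarate carrier, Slc25a16, Slc25a39 and Slc25a47), 4 of 6 genes of family 35 (Slc35b1, Slc35e3, Slc35e4 and Slc35f5), and 4 of 11 metal transporters (Slc30a1, a zinc exporter, the zinc importers Slc39a9 and Slc39a10, and Slc41a1). The others were Slc36a1 and Slc38a10 among amino acid transporters, Slc16a13, Slc19a2 (a thiamine transporter), Slc29a3 and Slc9a3r1. None of the 7 sugar, 7 organic ion, 5 Slco, 4 family 17 or 11 ion and pH genes lay above it in every group. These included Slc2a4 (GLUT4), the sodium-glucose transporter relatives Slc5a4a and Slc5a4b, Slc10a1 (the liver bile acid transporter) and Slc17a1 to Slc17a3, which are known mainly from other organs. Probe sets differ in brightness, and a gene mean over several of them was set against a median of single probe sets. A place above or below the reference level thus does not show whether a gene was expressed.

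Start-site windows show the sequence around the point where transcription begins. RefSeq (GRCm38.p6) gave 86 windows for 72 of the 88 members, each of 300 bases, with 250 before and 50 from a transcript start on. The median share of G and C was 57.8% over these windows and 52.7% over all 32851 RefSeq windows of this length. The latter were not limited to the genes measured here or to their chromosomes. The windows of Slc41a1, lower with IFNγ in every set, and of Slc26a10, which fell in kidney, are printed as the members on which the comparisons turn most. Capitals mark the 50 bases from the transcript start on.
Slc41a1: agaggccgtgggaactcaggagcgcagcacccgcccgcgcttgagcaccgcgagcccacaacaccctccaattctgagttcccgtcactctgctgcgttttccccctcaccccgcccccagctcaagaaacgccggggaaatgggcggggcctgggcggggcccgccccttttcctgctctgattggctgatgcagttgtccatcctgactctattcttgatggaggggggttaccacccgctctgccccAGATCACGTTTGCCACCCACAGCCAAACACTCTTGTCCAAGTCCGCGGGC
Slc26a10: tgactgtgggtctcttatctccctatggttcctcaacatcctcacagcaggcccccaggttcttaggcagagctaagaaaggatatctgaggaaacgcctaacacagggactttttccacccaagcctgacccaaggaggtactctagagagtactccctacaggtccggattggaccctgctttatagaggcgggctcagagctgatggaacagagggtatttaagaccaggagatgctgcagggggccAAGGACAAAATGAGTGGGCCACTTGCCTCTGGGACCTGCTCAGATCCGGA
These stretches are Slc41a1 at chr1:131827762-131828061 on the plus strand and Slc26a10 at chr10:127180533-127180832 on the minus strand. G and C made up 63.7% of the first and 53.7% of the second.

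Few solute carriers passed the test with IFNγ. Falls outnumbered rises among the calls, but with so few calls this is no result about the direction of the family. In MCA313 tumours 2 of 88 members fell at 24 h (2.27%, against 2.36% of all 5120 genes), Slc35f1 and Slc41a1, while of all genes 1.23% fell and 1.13% rose. At 48 h 1 rose, Slc23a3, and 2 fell, Slc35f1 and Slc39a9 (3.41%, against 2.42%), while of all genes 1.13% rose and 1.29% fell. In J558L tumours no member passed the limma test (0 of 88, against 1.68% of all genes), while 5 had an unadjusted p under 0.05 and 1 passed with array weights. In kidney only Slc26a10 fell (1.14%, against 4.98%), while of all genes 2.3% fell and 2.68% rose. With IFNγ-competent T cells in 16.113 tumours 2 members rose, Slc38a6 and Slc16a11, and 5 fell, Slc25a10, Slc39a10, Slc29a3, Slc9a2 and Slc41a1 (7.95%, against 7.68%), while of all genes 2.42% rose and 5.25% fell. These shares were near or under those of all genes. A call here means a limma p under 0.05 after Benjamini-Hochberg adjustment over all 5120 genes.

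**Figure D1:**
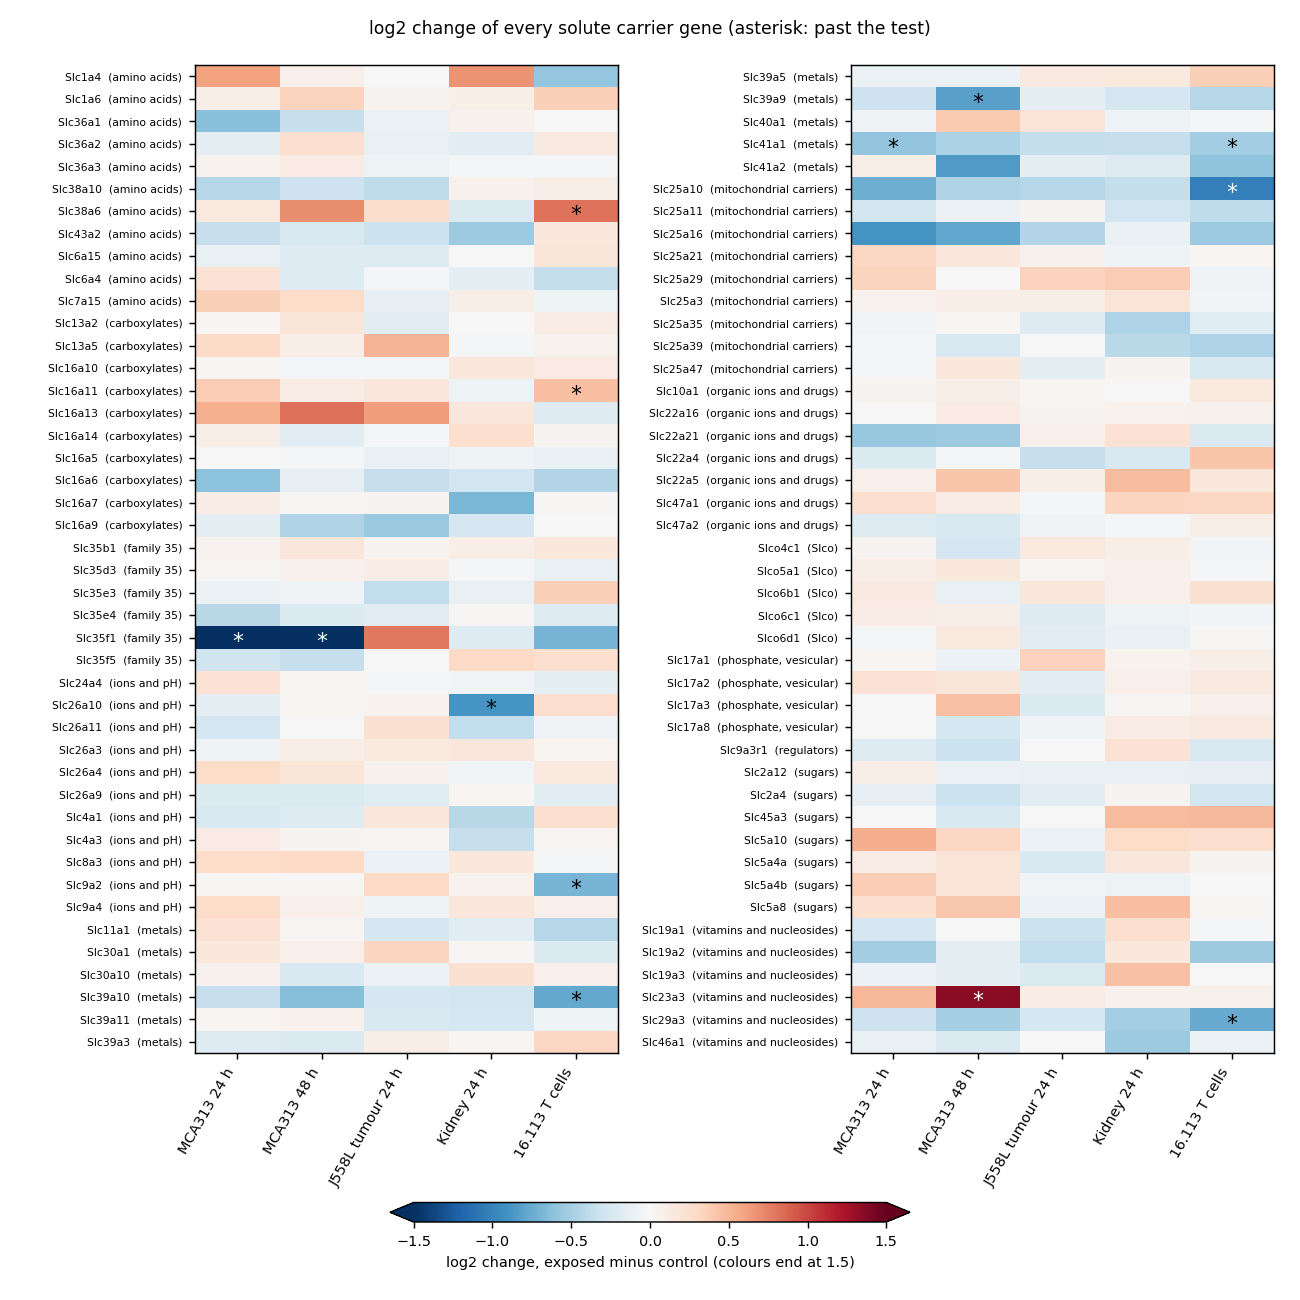
Heat map of the log2 change of each of the 88 members (rows, ordered by transport task) in the 5 comparisons with a control (columns). Colours end at 1.5 log2 units either way and asterisks mark the members past the test, of which there are 2, 3, 0, 1 and 7 from left to right.

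Over all 88 members the typical change was small, but 52 of them lay above the reference level in no group. The median log2 change over the 88 members was 0.013 in MCA313 tumours at 24 h, −0.00070 at 48 h, −0.037 in J558L tumours, 0.011 in kidney and 0.0033 in 16.113 tumours. For all genes these medians were −0.010, −0.014, −0.0057, −0.0072 and 3.4e-05. A filter kept the 13 members above the 75th percentile of probe sets on at least 2 arrays. Their median was −0.27 in MCA313 tumours at 24 h, −0.13 at 48 h and −0.20 in 16.113 tumours. In J558L tumours and kidney it moved by less than 0.072, the SD of the member median between replicates. The same median over all genes kept by the filter was not computed. Changes past 2-fold were found for 1 member in MCA313 tumours at 24 h, 2 at 48 h, 1 in 16.113 tumours and none in J558L tumours or kidney. Of all 5120 genes 122, 139, 129, 108 and 125 changed past 2-fold, in that order. Such small member counts are no result about the family. At an unadjusted p under 0.05 stood 12 members (13.6%) in MCA313 tumours at 24 h against 14.2% of all genes, 9 (10.2%) at 48 h against 14.1%, 5 (5.68%) in J558L tumours against 9.77%, 9 (10.2%) in kidney against 16.8%, and 19 (21.6%) in 16.113 tumours against 20.4%. In MCA313 tumours no member passed between 48 h and 24 h with limma (0.0195% of all genes did), and 4 had an unadjusted p under 0.05 against 4.79% of all genes.

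How often arrays with and without IFNγ separated was also counted. In MCA313 tumours at 24 h the groups did not overlap for 15 members that were higher and 14 that were lower, against 13.4% and 18.6% of all genes. At 48 h they did not overlap for 11 higher and 17 lower members (14.1% and 18.2% of all genes), and in J558L tumours for 9 and 13 (13.9% and 17.1%). In kidney this held for 3 higher and 6 lower members (9.73% and 11% of all genes), and in 16.113 tumours for 3 and 5 (4.18% and 6%).

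Among the metal transporters stood the member that fell both in MCA313 tumours at 24 h and in 16.113 tumours. Slc41a1 is a magnesium transporter of the plasma membrane that exports magnesium in exchange for sodium. In MCA313 tumours it read 10.19, 9.73 and 9.74 at 0 h, 9.37 and 9.22 at 24 h, and 9.50 and 9.33 at 48 h. J558L tumours gave 10.43 and 10.45 at 0 h and 10.16, 10.11 and 9.97 at 24 h, and kidney 9.86, 9.77 and 9.88 at 0 h and 9.41, 9.51 and 9.57 at 24 h. In 16.113 tumours it read 8.97, 8.49 and 8.42 with competent and 9.14, 9.12, 9.11, 9.08 and 9.30 with deficient T cells. Every array with IFNγ was thus lower than every control array of its own set. In bulk samples of this kind, fewer cells of a type and less RNA per cell cannot be told apart.

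The change of Slc41a1 in log2 units was −0.59 ± 0.16 (SE) in MCA313 tumours at 24 h, a 1.51-fold fall with a limma adjusted p of 0.0467. It was −0.53 ± 0.13 in 16.113 tumours, 1.44-fold with an adjusted p of 0.0109. The values −0.47 ± 0.16 at 48 h in MCA313 tumours (adjusted p = 0.127), −0.36 ± 0.16 in J558L tumours (0.407) and −0.34 ± 0.14 in kidney (0.196) did not pass. Between 10 and 13 of its 13 probe sets pointed down in each comparison. At 24 h the call in MCA313 tumours was lost when 0 h replicate 1 (adjusted p = 0.283), 24 h replicate 1 (0.102) or 24 h replicate 2 (0.406) was left out, with the replicate number as a block (0.0555), and under other summaries or scalings (0.0663 to 0.228). In 16.113 tumours it was lost without competent replicate 2 (0.0621) or 3 (0.0944), with the brightest probe set (0.0752) and with array weights (0.0878).

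Lower values in each of MCA313 tumours at 24 h, J558L tumours, kidney and 16.113 tumours, which share no arrays, were seen for 10 of 88 members (11.4%) and 14.9% of all genes. Groups that did not overlap in all 4, with the IFNγ arrays lower, were seen for Slc41a1 alone (1.14% of members) and for 38 of 5120 genes (0.742%). Higher values in all 4 without overlap were seen for none of the members and for 58 genes. Its homologue Slc41a2, also a magnesium transporter, changed by 0.10 ± 0.34 at 24 h and −0.85 ± 0.34 at 48 h in MCA313 tumours (limma adjusted p = 0.962 and 0.227).

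**Figure D2:**
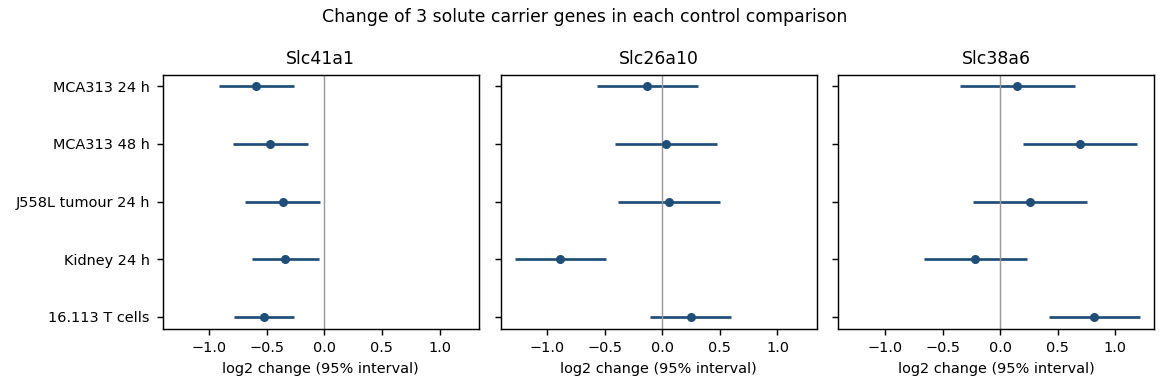
Log2 change with its 95% interval (horizontal axis) of Slc41a1, Slc26a10 and Slc38a6 in each of the 5 comparisons with a control. All 5 intervals of Slc41a1 lie below 0, that of Slc26a10 lies below 0 in kidney, and those of Slc38a6 lie above 0 in 16.113 tumours and in MCA313 tumours at 48 h.

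Of 5 zinc importers of family 39, 1 fell in MCA313 tumours at 48 h, Slc39a9, and 1 in 16.113 tumours, Slc39a10. In 16.113 tumours Slc39a5 and Slc39a3 were higher in sign by 0.36 ± 0.15 and 0.31 ± 0.16 log2 units (limma adjusted p = 0.176 and 0.277), and both passed with quantile normalization (0.0346 and 0.0478). Slc39a11 changed by −0.06 ± 0.17 there. Slc39a9 (ZIP9), found in the Golgi and the plasma membrane, read 9.23, 9.17 and 9.39 at 0 h, 8.98 and 8.93 at 24 h, and 8.29 and 8.60 at 48 h in MCA313 tumours. It fell by 0.82 log2 units ± 0.20 at 48 h, 1.76-fold, with a limma adjusted p of 0.0265, and 9 of 9 probe sets were lower. The 48 h arrays lay below all 24 h arrays, which lay below all 0 h arrays, but neither the change at 24 h (−0.31 ± 0.20, adjusted p = 0.552) nor that from 24 h to 48 h (−0.51 ± 0.22, 0.974) passed. The 48 h call was lost without 0 h replicate 1 (adjusted p = 0.0800), 0 h replicate 3 (0.0826) or 48 h replicate 1 (0.369), with the brightest (0.384) or the median probe set (0.0622) in place of the mean, and in a fit of the MCA313 arrays alone (0.0579).

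Slc39a10 (ZIP10), an importer of the plasma membrane, read 6.96, 6.33 and 5.64 with competent and 7.16, 7.42, 6.85, 7.02 and 6.97 with deficient T cells in 16.113 tumours. Competent replicate 1 lay within the range of the deficient arrays, and the other two competent arrays below it. The fall was 0.77 log2 units, −0.77 ± 0.23, or 1.71-fold, with a limma adjusted p of 0.0379 and 13 of 14 probe sets lower. It was lost without competent replicate 2 (adjusted p = 0.0843) or 3 (−0.44, 0.319), or without deficient replicate 1 (0.0655), 2 (0.0841) or 4 (0.0534), with the brightest (0.272) or median probe set (0.124), and with array weights (0.215). In MCA313 tumours at 48 h its change was −0.64 ± 0.28 (adjusted p = 0.300).

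Of the 11 metal transporters 1 fell in MCA313 tumours at 24 h, 1 at 48 h, 2 in 16.113 tumours and none in J558L tumours or kidney, and none rose. Of all genes 1.23%, 1.29% and 5.25% fell in the first 3 of these comparisons, and with lists this short 1 or 2 genes are no result about the list. Their median log2 change was −0.07, −0.22, −0.20, −0.14 and −0.16 in that order, where those of all genes lay between −0.014 and 3.4e-05. The 13 members kept by the 75th percentile filter, which may include some of this list, had medians of −0.27, −0.13 and −0.20 in the first 3. Lower values thus cannot be called particular to metal transporters. The iron transporters did not pass in any comparison. Slc40a1 (ferroportin), the iron exporter, changed by −0.02 ± 0.52 in 16.113 tumours, where competent replicate 2 read 7.93 and the other competent arrays 4.46 and 4.11. Without that array its change was −1.23, with a limma adjusted p of 0.0113. Slc11a1 (NRAMP1), a divalent metal transporter of phagosomes, changed by between −0.43 and 0.22 over the 5 comparisons.

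Slc35f1, an orphan member of the nucleotide-sugar transporter family, showed the largest change of any solute carrier. In MCA313 tumours it read 6.60, 6.26 and 6.44 at 0 h, 4.80 and 4.09 at 24 h, and 4.45 and 4.25 at 48 h. All 3 arrays at 0 h lay above the reference level and all 4 later arrays well below it. The change was −1.98 ± 0.39 at 24 h, 3.96-fold, and −2.08 ± 0.39 at 48 h, 4.22-fold, with limma adjusted p-values of 0.00713 and 0.00448. Its change at 24 h was the lowest of all 5120 genes, and 10 of 11 probe sets pointed down at 24 h and 11 of 11 at 48 h. Since the later groups lay below the array median, the size of the fall is uncertain. Leaving out 24 h replicate 2 (−1.63, adjusted p = 0.210) ended the call at 24 h, and leaving out 48 h replicate 1 (0.0515) that at 48 h. Taking the brightest probe set ended both (0.168 and 0.193), and the median probe set that at 48 h (0.0772).

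In J558L-bearing mice Slc35f1 did not pass, and the difference between the MCA313 and J558L tumour responses was not tested. J558L tumours gave 4.76 and 4.74 at 0 h and 5.36, 4.70 and 6.57 at 24 h, a change of 0.79 ± 0.39 (limma adjusted p = 0.527), with groups that overlapped. In kidney it read 5.37, 5.93 and 4.43 at 0 h and 5.30, 4.78 and 5.09 at 24 h, −0.19 ± 0.35 (0.878). The difference between the MCA313 and kidney responses was −1.79 ± 0.52, and its adjusted p of 0.175 did not pass. In 16.113 tumours Slc35f1 read 4.21, 4.30 and 3.91 with competent and 5.04, 4.84, 4.54, 4.62 and 5.15 with deficient T cells, −0.70 ± 0.31 (adjusted p = 0.206). These groups did not overlap but both lay below the array median. No other gene of family 35 passed in any comparison of the main fit. With the brightest probe set Slc35f5 rose in 16.113 tumours (1.10, limma adjusted p = 0.0349), against 0.25 (0.580) in the main fit. The nearest in the main fit was Slc35e4, with −0.42 ± 0.16 in MCA313 tumours at 24 h (adjusted p = 0.188).

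Among carriers of vitamins and nucleosides, 1 rose and 1 fell in different models. Slc23a3 belongs to the family of sodium-dependent vitamin C transporters. In MCA313 tumours it read 5.23, 5.37 and 5.06 at 0 h, 6.14 and 5.28 at 24 h, and 6.56 and 6.58 at 48 h. It rose by 1.35 ± 0.31 log2 units at 48 h, 2.55-fold, with a limma adjusted p of 0.0191 and 12 of 13 probe sets higher. The 48 h arrays were above all others, while at 24 h 1 array stood within the 0 h range. Leaving out any of 0 h replicate 1 (adjusted p = 0.0719), 0 h replicate 3 (0.0651), 48 h replicate 1 (0.182) or 48 h replicate 2 (0.0889) ended the call, as did the brightest (0.270) or the median probe set (0.146). In J558L tumours, kidney and 16.113 tumours it changed by 0.11 ± 0.31, 0.07 ± 0.28 and 0.07 ± 0.25.

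Slc29a3 (ENT3) exports nucleosides from lysosomes. In 16.113 tumours it read 6.09, 5.98 and 5.52 with competent and 6.26, 6.23, 6.94, 6.70 and 6.94 with deficient T cells, so that all competent arrays were lower. It fell by 0.75 log2 units ± 0.22, 1.68-fold, with a limma adjusted p of 0.0361 and 6 of 6 probe sets lower. The call was lost without competent replicate 2 (adjusted p = 0.0615) or 3 (0.212), or without deficient replicate 3 (0.0865), 4 (0.0643) or 5 (0.0802), with the brightest probe set (0.573), quantile normalization (0.0613) or array weights (0.194). In kidney, where its 6 probe sets were lower too, the change was −0.51 ± 0.24 (0.294). Slc46a1, the proton-coupled folate transporter, read 5.78, 5.90 and 6.27 in kidney at 0 h and 5.42, 5.59 and 5.31 at 24 h, −0.55 ± 0.21 (0.156), without overlap but short of the test. The thiamine transporter Slc19a2 changed by −0.53 ± 0.22 in MCA313 tumours at 24 h and −0.53 ± 0.18 in 16.113 tumours (adjusted p = 0.277 and 0.0738). In 16.113 tumours Slc19a2 passed limma with the brightest probe set (−0.99, adjusted p = 0.0335) and with the 75th percentile filter (0.0371).

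Ion and pH regulators gave the only solute carrier that fell in kidney. Slc26a10 belongs to the SLC26 family of anion exchangers. In kidney it read 8.40, 8.28 and 8.73 at 0 h and 7.74, 7.50 and 7.50 at 24 h, and every 24 h array lay below every 0 h array. The mean went from 8.47 ± 0.23 (SD, n = 3) to 7.58 ± 0.14 (SD, n = 3), both above the kidney array median of about 6.37. The change was −0.89 ± 0.19, 1.85-fold, with a limma adjusted p of 0.00502 and 19 of 20 probe sets lower. It passed with each array left out in turn (adjusted p between 0.00899 and 0.0431) and did not pass only when the brightest probe set stood for the gene (0.123). Of 24 kidney tubule markers 8 could be read, and their mean lay between 5.25 and 5.65 at 0 h and between 5.41 and 5.80 at 24 h. None of the 8 passed, 7 were in sign higher at 24 h, and 1 was above the array median. Of 7 leukocyte markers Cd48 rose in kidney (0.77 ± 0.21, limma adjusted p = 0.0356), and of 7 fibroblast and mural markers Fn1 fell (−1.0 ± 0.22, 0.00770). The part of any of these in the fall of Slc26a10 was not tested.

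In the tumours Slc26a10 did not pass, and in MCA313 and J558L tumours it stood below the array median. J558L tumours gave 5.84 and 5.62 at 0 h and 5.95, 5.56 and 5.85 at 24 h, 0.06 ± 0.21. MCA313 tumours gave 5.07, 4.88 and 5.21 at 0 h, 4.96 and 4.89 at 24 h and 4.92 and 5.26 at 48 h, −0.13 ± 0.21 and 0.03 ± 0.21. With 16.113 tumours it changed by 0.25 ± 0.17. The smallest limma adjusted p among these was 0.450.

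Slc9a2 (NHE2), a sodium-proton exchanger of epithelial membranes, fell in 16.113 tumours. It read 4.67, 4.09 and 4.24 with competent and 4.89, 5.03, 5.40, 5.15 and 4.71 with deficient T cells, without overlap. The change was −0.70 ± 0.17, 1.62-fold, with a limma adjusted p of 0.0102, but only 10 of 13 probe sets were lower and all arrays lay below the array median, so its size is uncertain. It was lost without competent replicate 2 (adjusted p = 0.0694) or 3 (0.0580), with the brightest (0.112) or the median probe set (0.611), and with array weights (0.0694). Slc4a1 (band 3, the anion exchanger of red cells and of the collecting duct) passed nowhere, with changes from −0.41 to 0.24. Slc8a3, Slc24a4, Slc4a3, Slc9a4, Slc26a3, Slc26a4, Slc26a9 and Slc26a11 did not pass in any comparison either.

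Slc38a6 (SNAT6), of the family of sodium-coupled neutral amino acid transporters, rose in 16.113 tumours. It read 6.52, 6.45 and 6.10 with competent and 6.19, 5.36, 5.37, 5.71 and 5.08 with deficient T cells, and 1 deficient array lay within the competent range. The rise was 0.82 ± 0.19, 1.76-fold, with a limma adjusted p of 0.00948 and 17 of 21 probe sets higher. It passed with each of the 8 arrays left out in turn (0.00117 to 0.0423), but not in a fit of the 16.113 arrays alone (limma adjusted p = 0.104). In MCA313 tumours it read 6.50, 6.22 and 6.45 at 0 h, 6.57 and 6.51 at 24 h and 7.20 and 6.96 at 48 h. Both 48 h arrays were the highest, 0.69 ± 0.24 above 0 h, but the adjusted p was 0.140. J558L tumours gave 0.26 ± 0.24 and kidney −0.21 ± 0.21 (0.937 and 0.721).

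None of the other 10 genes for amino acids and amines passed in any comparison of the main fit. Slc1a4 (ASCT1), which exchanges small neutral amino acids, changed by 0.60 ± 0.33 in MCA313 tumours at 24 h, 0.68 ± 0.29 in kidney and −0.58 ± 0.26 in 16.113 tumours (limma adjusted p = 0.447, 0.223 and 0.217). With the median probe set it passed in 16.113 tumours (−1.41, limma adjusted p = 0.0157). Slc43a2 (LAT4), a facilitative carrier of branched-chain amino acids and phenylalanine, changed by between −0.54 and 0.16. Slc38a10 was lower in sign in MCA313 tumours at 24 h (−0.42 ± 0.18) and in J558L tumours (−0.38 ± 0.18), with adjusted p-values of 0.294 and 0.504. Slc6a4, the serotonin transporter, changed by −0.36 ± 0.16 in 16.113 tumours (0.202).

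**Figure D3:**
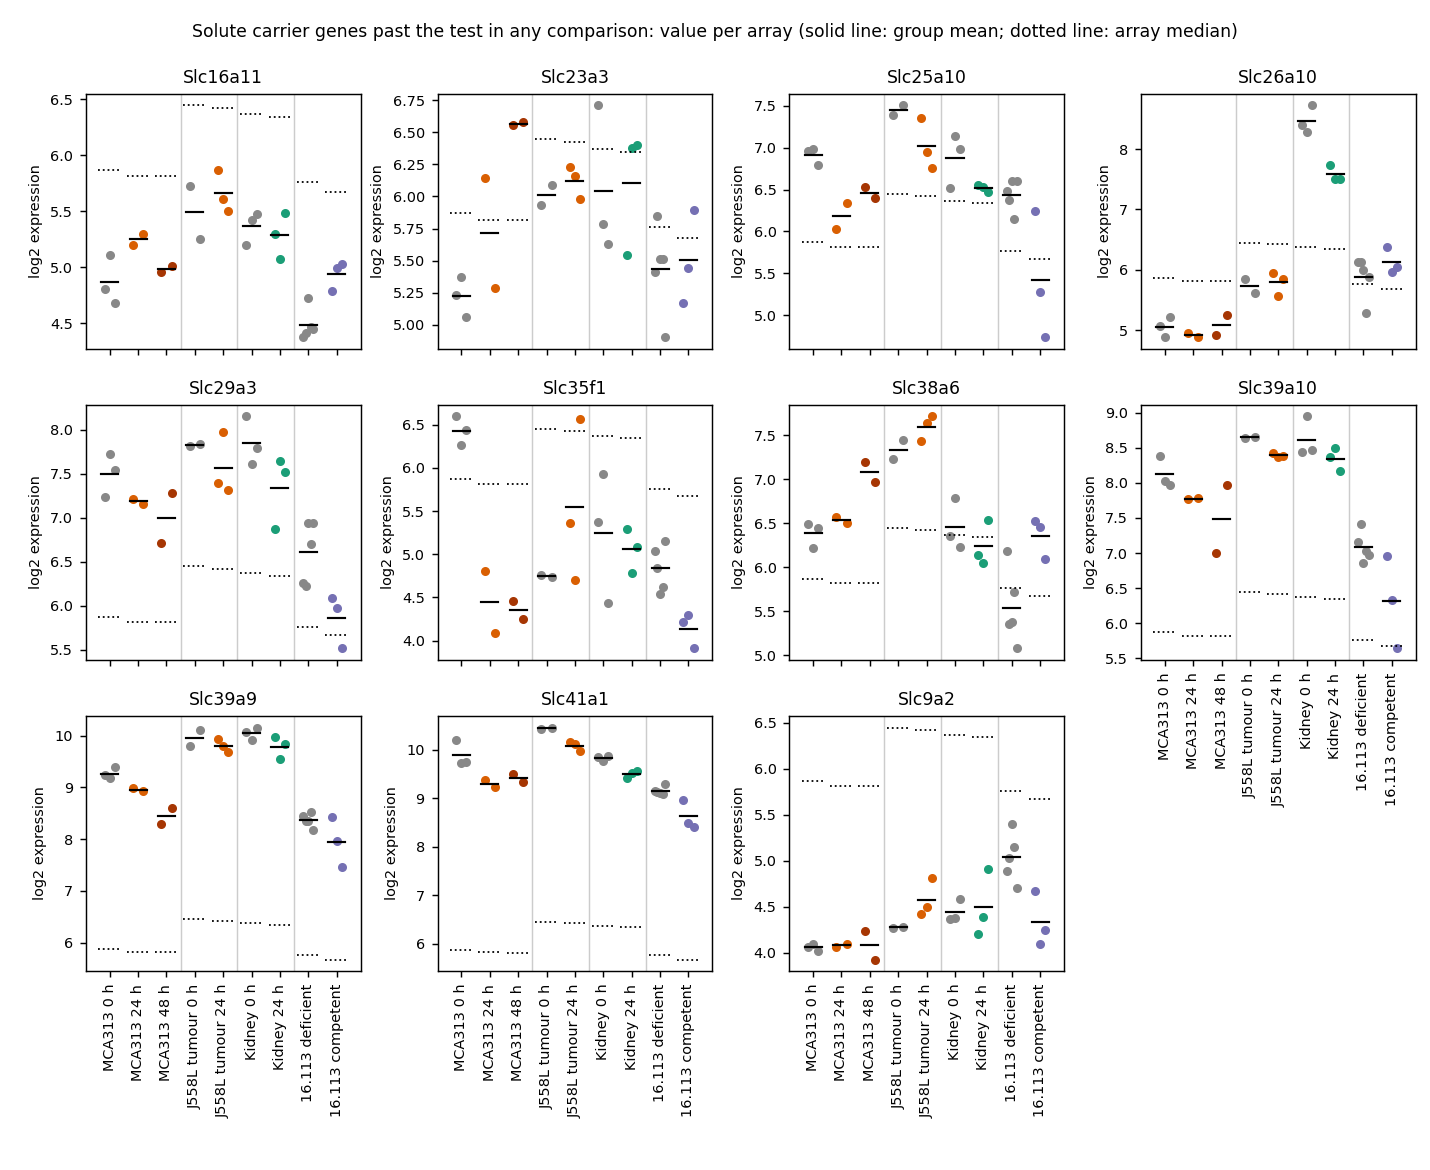
Log2 value on each array (points; grey for 0 h or IFNγ-deficient T cells) of the 11 members that passed the test in any comparison, with the group mean as a solid line and the array median as a dotted line. Vertical lines separate the 4 sets, whose levels are not comparable; Slc41a1 is lower with IFNγ than without it in each set, and the group mean of Slc35f1 is above the array median only in MCA313 tumours at 0 h, although 1 array of J558L tumours at 24 h is above it too.

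Of the 9 mitochondrial carriers 1 passed the test, in 16.113 tumours, where 5.25% of all genes fell. There 8 of the 9 were lower in sign, against 2559 of all 5120 genes, and their median log2 change was −0.24 beside 3.4e-05. Of the 9, 5 lay above the reference level in every group. The 13 members kept by the 75th percentile filter, which may include some of these carriers, had a median of −0.20 there. Lower values thus cannot be called particular to this list. The one that fell was Slc25a10, the dicarboxylate carrier that exchanges malate or succinate for phosphate. It read 6.24, 5.28 and 4.74 with competent and 6.48, 6.38, 6.60, 6.14 and 6.61 with deficient T cells, so that competent replicate 1 lay among the deficient arrays. It fell by 1.02 log2 units ± 0.22, 2.03-fold, with a limma adjusted p of 0.00556 and 12 of 14 probe sets lower. Without competent replicate 3 the change was −0.68 and no longer passed (0.0684). It was lower in sign in the other comparisons too, by 0.73 ± 0.28 and 0.45 ± 0.28 in MCA313 tumours at 24 h and 48 h in log2 units, 0.43 ± 0.28 in J558L tumours and 0.36 ± 0.25 in kidney, none past the test (adjusted p between 0.205 and 0.762).

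Slc25a16, a carrier linked to coenzyme A transport, changed by −0.90 ± 0.32 in MCA313 tumours at 24 h (limma adjusted p = 0.165), −0.78 ± 0.32 at 48 h (0.249) and −0.54 ± 0.26 in 16.113 tumours (0.236). Slc25a39, a carrier of glutathione into mitochondria, changed by −0.40 ± 0.17 in kidney (0.218) and −0.47 ± 0.15 in 16.113 tumours (0.0668). In 16.113 tumours it passed limma with the brightest probe set (−0.93, adjusted p = 0.0241) and with the 50th (0.0487) and 75th percentile filters (0.0333). In MCA313 tumours at 24 h 6 of the 9 mitochondrial carriers were lower in sign, in J558L tumours 5 and in kidney 6, with none past the test. Of all 5120 genes 2654, 2624 and 2625 were lower in sign, a share near that of the carriers.

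Carboxylate transporters of family 16 gave 1 small rise. Slc16a11 read 4.79, 5.00 and 5.03 with competent and 4.38, 4.41, 4.73, 4.46 and 4.45 with deficient T cells in 16.113 tumours, without overlap. It rose by 0.45 ± 0.14 log2 units, 1.37-fold, with a limma adjusted p of 0.0445 and 9 of 10 probe sets higher. All of its values lay below the array median, so the size is uncertain. The call was lost without competent replicate 2 (adjusted p = 0.127) or 3 (0.167), or without deficient replicate 1 (0.0858), 2 (0.0799), 4 (0.0717) or 5 (0.0737), with the brightest probe set (0.496) or array weights (0.283). In MCA313 tumours at 24 h it changed by 0.38 ± 0.17 (0.308).

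Slc16a13 is the neighbour of Slc16a11 on chromosome 11 and did not pass in any comparison. In MCA313 tumours it read 7.57, 8.59 and 8.07 at 0 h, 8.77 and 8.45 at 24 h and 8.94 and 8.87 at 48 h. The change at 48 h was 0.83 ± 0.27 with 7 of 7 probe sets higher, and the groups did not overlap. Its limma adjusted p was 0.120, and 0.0384 without 0 h replicate 2 (1.09). J558L tumours gave 7.88 and 8.36 at 0 h and 8.67, 8.72 and 8.84 at 24 h, 0.62 ± 0.27 (0.418), again without overlap. Kidney gave 0.17 ± 0.25 and 16.113 tumours −0.20 ± 0.22 (0.842 and 0.681).

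Slc13a5, the sodium-coupled citrate transporter, had the smallest p of any member in J558L tumours. It read 4.74 and 4.55 at 0 h and 5.05, 5.32 and 5.12 at 24 h, without overlap and below the array median. The change of 0.51 ± 0.17 had a limma adjusted p of 0.165, and of 0.0229 when arrays were weighted. Slc16a9, a carnitine carrier, changed by −0.55 ± 0.23 in these tumours (0.375). Slc16a7 (MCT2), a lactate and pyruvate transporter, read 4.50, 5.78 and 6.06 in kidney at 0 h and 4.77, 4.79 and 4.73 at 24 h, −0.69 ± 0.25 (0.130). Its 0 h arrays differed from each other by more than the groups did, and without 0 h replicate 1 the change was −1.16 with an adjusted p of 0.000241.

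The other tasks held no member past the test in any comparison of the main fit. Among the 7 genes of the sugar transporter families Slc5a10, a sodium-coupled mannose and fructose transporter, changed by 0.55 ± 0.21 in MCA313 tumours at 24 h (limma adjusted p = 0.212). Slc2a12 (GLUT12) changed by between −0.13 and 0.10 over the 5 comparisons. Slc22a4 changed by between −0.34 and 0.42, and the carnitine transporter Slc22a5 by between 0.07 and 0.47. Slc22a21, a carnitine transporter that lies between them on chromosome 11, changed by −0.57 ± 0.26 in MCA313 tumours at 24 h (0.329). Slc47a1 (MATE1), which exports organic cations against protons, changed by 0.32 ± 0.13 in kidney and 0.31 ± 0.11 in 16.113 tumours (0.169 and 0.101). With the median probe set it passed in 16.113 tumours (0.66, limma adjusted p = 0.0181). The Slco genes, organic anion transporters, and family 17 had 1 member at an unadjusted p under 0.05, Slco6b1 in 16.113 tumours. Slc9a3r1 (NHERF1) was lower in sign in MCA313 and 16.113 tumours, with changes of −0.20, −0.33 and −0.24, and higher in kidney, 0.22, none past the test.

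The responses of tumour and kidney endothelium of J558L-bearing mice could be set against each other in a test of their difference. Whether tumour and kidney samples came from the same mice is not stated, and no fit paired them. The errors and intervals below treat all arrays as independent. No member passed limma in it (0 of 88, against 0.254% of all genes), and 2 had an unadjusted p under 0.05 (2.27%, against 7.56%). Slc26a10 came first. Its tumour response exceeded its kidney response by 0.95 ± 0.28 log2 units, with a 95% interval from 0.35 to 1.54, 19 of 20 probe sets in that direction and an adjusted p of 0.249. Since Slc26a10 stood below the array median in J558L tumours, the size of this difference is uncertain. Slc13a5, below the array median in both tissues, followed with 0.53 ± 0.23 and an interval from 0.06 to 1.00 (0.559). For Slc41a1, lower at 24 h on all arrays of both tissues, the difference was −0.02 ± 0.21 with an interval from −0.46 to 0.42. Slc16a7 differed by 0.73 ± 0.37 (0.701), and by 1.21 with an adjusted p of 0.0311 when kidney 0 h replicate 1 was left out.

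Across the 88 members, changes in J558L tumour and kidney were only loosely related. The sign was shared by 48 members (54.5%), 22 higher in both and 26 lower in both, against 58.0% of all genes. Pearson's r was 0.145 and Spearman's rho 0.189 over the 88 members, and 0.428 and 0.275 over all genes, as a description across genes measured on the same arrays. The tumour response of the folate transporters exceeded the kidney response by 0.56 ± 0.31 for Slc46a1 and fell short of it for Slc19a1 (−0.57 ± 0.30). The 7 genes of the sugar transporter families had a median difference of −0.37, and none of these genes passed.

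**Figure D4:**
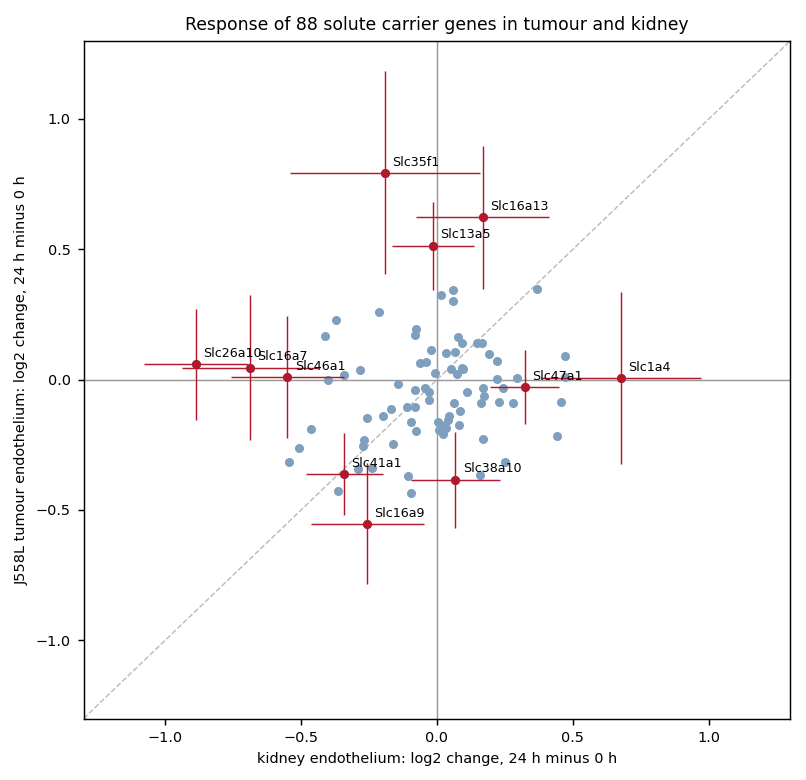
Log2 change at 24 h in J558L tumour endothelium (vertical axis) against that in kidney endothelium (horizontal axis) for the 88 members, with standard errors on the labelled ones and a dashed line of equal change. Slc26a10 lies far above the line, at −0.89 in kidney and 0.06 in tumour, where it stood below the array median. Slc41a1 lies on the line.

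Set against the same kidney arrays, the MCA313 response at 24 h left no member past the test either. No member passed limma (0 of 88, against 0.508% of all genes) and 6 had an unadjusted p under 0.05 (6.82%, against 8.93%). They were Slc35f1 (−1.79 ± 0.52), Slc26a10 (0.76 ± 0.28, adjusted p = 0.381), Slc19a2 (−0.69 ± 0.30), Slc22a21 (−0.79 ± 0.35), Slc16a7 (0.80 ± 0.37) and Slc35e4 (−0.44 ± 0.21). Both contrasts use the same kidney arrays, so their values for Slc26a10 are not independent of each other. In MCA313 tumours too Slc26a10 stood below the array median. The MCA313 and J558L mice also differed in which cells carried the receptor.

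Limits of these calls lie in the number of arrays and in the other cells of the sort. When only the 8 arrays of 16.113 tumours were fitted, none of the 7 members passed (limma adjusted p between 0.0877 and 0.163), against 120 of all genes. Leukocyte markers, 7 of 17 readable, had means between 4.78 and 4.86 in MCA313 tumours at 0 h, between 5.14 and 5.44 at 24 h and between 5.35 and 5.49 at 48 h, with Fcgr4 past the test at both times. In 16.113 tumours they lay between 5.44 and 6.16 with competent and between 5.02 and 6.15 with deficient T cells, and 1 of the 7, Cd48, rose (0.70 ± 0.19, limma adjusted p = 0.0231). Fibroblast and mural markers, 7 of 13 readable, lay between 6.40 and 6.96 with competent and between 6.85 and 7.28 with deficient T cells, and 1 of them, Col3a1, fell (−0.78 ± 0.19, limma adjusted p = 0.0109). The part of these leukocyte, fibroblast and mural markers in the changes of Slc25a10, Slc39a10, Slc29a3, Slc9a2, Slc41a1, Slc38a6 and Slc16a11 was not tested, nor was that of the leukocyte markers in the MCA313 changes of Slc41a1, Slc35f1, Slc23a3 and Slc39a9. Of 8 plasma cell markers 5 could be read, and Irf4, also a gene of other lymphocytes and macrophages, rose in the tumours of all 3 models. Another of the 5, Sdc1, fell in 16.113 tumours (−0.84 ± 0.16, limma adjusted p = 0.00209), and the other 3 passed in no comparison. No erythroid marker could be read, and Pecam1 and Ptprc passed in no comparison.

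Between 0 and 2 of 58 transport genes outside the family were called in each comparison with a control. Such small counts are no result about the list. Of 58 ATP-driven pumps, ABC transporters, channels and aquaporins 1.72% passed in MCA313 tumours at 48 h (2.42% of all genes), 3.45% in kidney (4.98%), 1.72% in 16.113 tumours (7.68%) and none with limma in MCA313 tumours at 24 h or J558L tumours (2.36% and 1.68%), where 8 and 3 of them had an unadjusted p under 0.05. The 1 gene at 48 h was Abcb6, which fell (−1.0 ± 0.25, limma adjusted p = 0.0284). In kidney 1 fell, Atp2a3 (SERCA3, the calcium pump of the endoplasmic reticulum, −1.14 ± 0.21, adjusted p = 0.00154), and 1 rose, Atp6v1d, a subunit of the vacuolar proton pump (0.70 ± 0.17, 0.0172). Atp6v1d was also the 1 such gene to rise in 16.113 tumours (0.65 ± 0.15, 0.0101).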

How the data were processed

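Sorted endothelial cells were profiled on 26 Affymetrix whole-transcript arrays. The authors deposited log2 values of 65535 probe sets; the submitters' processing notes name Affymetrix Expression Console and limma. How the values were normalized was not given in the sources used here. Each of the 4 sets had been normalized separately, as exact values were shared within sets and at most 0.0059% of them between sets. Of the probe sets 53857 carried 1 gene symbol, 766 several and 10912 none, and only the first kind was used, averaged per gene. A total of 18 Slc probe sets with several symbols were left out. All 88 member symbols were current in RefSeq.

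limma 3.58.1 in R 4.3.3 fitted 9 group means over all 26 arrays, with no filter on low values. Contrasts were formed within sets or as differences of such contrasts, tested two-sided with eBayes and adjusted over 5120 genes by Benjamini-Hochberg at 0.05. Precision is limited by the number of arrays. The fit was tested on simulated data. The members and lists were chosen with earlier results of these data known. Members named are those past the test, those with the smallest p up to 6 in a comparison, and 8 carriers of interest: Slc11a1, Slc4a1, Slc40a1, Slc1a4, Slc43a2, Slc2a12, Slc22a4 and Slc22a5. Slc8a3, Slc6a4, Slco6b1, Slc9a3r1 and the others of their tasks were named as members of a list. Alternatives were the brightest or the median probe set, filters at the 50th and 75th percentile, quantile normalization, weighted arrays, a replicate block, a fit of one set's arrays, and each array left out. Deviations of same-numbered arrays from their group means had correlations from −0.0902 to 0.0626. With so few arrays per group this check cannot tell whether the numbers pair the samples. The main fit used no pairing. A planned search of the start-site windows is not reported here.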

Additional observations from a re-analysis of the deposited data

Results flagged for a closer look

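Among the 15 members named for 16.113 tumours, 2 had 1 of the 5 arrays with deficient T cells far from the other 4. Slc41a1 read 9.30 on deficient replicate 5, above the others. Slc16a11 read 4.73 on deficient replicate 3, above the others. Chance gives about 1 in 20 such groups.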

How the results depend on the processing

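The comparisons are named in the order MCA313 at 24 h, MCA313 at 48 h, MCA313 at 48 h against 24 h, J558L tumour, kidney, tumour minus kidney, MCA313 minus kidney, and 16.113, and a count not given moved by less than 1.5 times. Members called by limma became 1 in MCA313 at 24 h with the brightest probe set, where both falls were lost and Slc16a11 rose instead (1.59). They became 1, a fall already called, with the median probe set, the 75th percentile filter, quantile normalization, the replicate block, or the arrays of that set alone. At 48 h they became 0 with the brightest or median probe set and 1 with the 75th percentile filter. In J558L tumour they became 1 with array weights. In kidney they became 2 with the brightest probe set (Slc29a3 lower and Slc5a10 higher, in place of Slc26a10) or with array weights (Slc26a10 and Slc16a7). In 16.113 they became 4 with the 75th percentile filter (2 of them already called), 2 with array weights and 0 with the arrays of that set alone. A count that moved less could still hold other members. For 16.113 the brightest probe set kept only Slc25a10 and Slc38a6 of the calls and added Slc19a2, Slc25a39 and Slc35f5. The median probe set there lost Slc39a10 and Slc9a2 and added Slc1a4 and Slc47a1.

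All genes called, in that order, became 28, 50, 3, 25, 132, 1 and 5 with the brightest probe set (16.113 not moved), and 62, 66, 0, 54, 155, 2 and 17 with the median probe set. The 75th percentile filter gave 0 for 48 h against 24 h, 8 for tumour minus kidney and 14 for MCA313 minus kidney. Quantile normalization gave 73 in MCA313 at 24 h and 5 in tumour minus kidney, and moved the median of all genes by at most 0.0147. Array weights gave 0 for 48 h against 24 h, 270 in J558L tumour, 36 in tumour minus kidney and 158 in 16.113. The arrays of the sets compared alone gave 13, 46, 0, 154 in kidney, 5 in MCA313 minus kidney and 120 in 16.113. The replicate block had a consensus correlation of −0.0306 and changed no other count by over 1.5 times. Whether its numbers pair the samples is not known.

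The median change of the members moved to −0.10 in MCA313 at 24 h with the median probe set, −0.13 with the 50th and −0.27 with the 75th percentile filter. At 48 h it moved to −0.12 and −0.13 with these filters, and for 48 h against 24 h to 0.11 with the 75th. In kidney it was 0.11 with the brightest and −0.062 with the median probe set and −0.11 with the 50th percentile filter. For MCA313 minus kidney it was −0.13 with the brightest probe set, and in 16.113 −0.094 with the brightest probe set and −0.20 with the 75th percentile filter. These filters keep 41 and 13 of the 88 members.

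With each array left out in turn, members called ranged from 0 to 2, 0 to 4, 0 to 0, 0 to 0, 1 to 2, 0 to 1, 0 to 1 and 2 to 10 in the order of comparisons. All genes called ranged from 17 to 118, 21 to 145, 0 to 5, 10 to 51, 159 to 217, 4 to 17, 12 to 27 and 218 to 561. The members' median ranged from −0.0060 to 0.023, −0.057 to −0.012, −0.042 to 0.013, −0.090 to 0.0096, −0.026 to 0.038, −0.11 to −0.00013, −0.024 to 0.043 and −0.030 to 0.036. Where a lone array was left in a group, it was assumed to vary like the other groups. For the single members named, no value that had passed changed sign under any of these. The cause of these shifts was not tested.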
